A study of Oryza sativa with 6 samples.

Results

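The cellulose synthase-like (CSL) genes of rice encode glycosyltransferases of the same superfamily as the cellulose synthases. The 10 members followed here were fixed by their MSU locus names and measured in the roots of *OsMYB305*-overexpressing rice: 5 of the F clade (*OsCSLF6*, *OsCSLF8*, *OsCSLF9*, *OsCSLF2* and *OsCSLF1*), 3 of the E clade (*OsCSLE1*, *OsCSLE6* and *OsCSLE2*) and 2 of the D clade (*OsCSLD1* and *OsCSLD2*). All 10 were found among the 55982 loci kept from the files. The comparison used 6 root libraries, 2 each from the wild type (WT, cultivar ZH11) and from OE15 and OE20, which are independent transgenic lines of ZH11. Both lines carry the coding sequence of *OsMYB305*, a MYB transcription factor gene, behind the viral CaMV 35S promoter, which is active in most plant tissues. For 14 days all seedlings received a solution with 0.288 mM NH4NO3, the low N treatment. Each line is a single transformation event, the level of the transgene differs between them, and no empty-vector line was analysed here.

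CSLF proteins synthesize mixed-linkage glucan, an unbranched glucose polymer of the walls of grasses. CSLF6 is the main enzyme of this kind in rice, and rice CSLF2 was shown to be sufficient for making the polymer when expressed in Arabidopsis. CSLD proteins act in tip-growing and dividing cells, and rice CSLD1 is needed for the growth of root hairs. The polymer made by CSLE proteins is not established. Bulk RNA cannot tell fewer cells of a type from less RNA per cell, and this limit applies to every change given here.

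Among the 10 genes, 6 are tandem copies. *OsCSLF9* (LOC_Os07g36610), *OsCSLF8* (LOC_Os07g36630), *OsCSLF2* (LOC_Os07g36690) and *OsCSLF1* (LOC_Os07g36700) lie in this order within a short run of loci on chromosome 7, and *OsCSLE1* (LOC_Os09g30120) and *OsCSLE6* (LOC_Os09g30130) are adjacent on chromosome 9. The other members are *OsCSLF6* (LOC_Os08g06380) on chromosome 8, *OsCSLE2* (LOC_Os02g49332) on chromosome 2, *OsCSLD1* (LOC_Os10g42750) on chromosome 10 and *OsCSLD2* (LOC_Os06g02180) on chromosome 6. The RefSeq gene list for rice carries 9 of the 10 names, each on the same chromosome, but not that of *OsCSLF1*. How reads shared between copies were counted is not given in the sources used here, so the values of the tandem genes carry that uncertainty. For *OsCSLF8* and *OsCSLE6*, the members called lower in at least 1 line, the primers that the study used to measure them by q-PCR are shown, since each gene sits beside copies of its own clade.
OsCSLF8 forward primer: caatgcgttctggatccgtt
OsCSLF8 reverse primer: caacaagggaaaaacaaatacca
OsCSLE6 forward primer: aattggctttgtaatgttggca
OsCSLE6 reverse primer: tgaaagaaaaggcagtgcaatt
These primers were not matched to a genome here, and no sequence was compared between the copies.

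The values are FPKM, fragments scaled by transcript length and by library size, so levels can be set side by side between genes. Set to 1 in WT replicate 1, library depth, estimated from the spacing of low values, was 1.36 in WT replicate 2. In the other libraries it lay between 0.984 and 1.08. Pearson correlations of log2(FPKM + 0.1) over the loci tested were at least 0.984 within a genotype and at most 0.976 between genotypes. No library stood apart in these correlations. The targeted gene *OsMYB305* had 0.0388 and 0.0576 FPKM in the WT, against 150.2 and 148.3 FPKM for OE15 and 81.3 and 80.2 FPKM for OE20, so no library went against its label. Both root marker genes were detected: *OsNAR2.1*, whose product serves high-affinity nitrate uptake in roots, was between 86.1 and 126.9 FPKM in the 6 libraries, and *OsNRT2.1*, a high-affinity nitrate transporter gene, was between 5.81 and 9.90 FPKM. They mark the tissue but were not level across genotypes, and the study reports both as higher in the lines. Means of *OsNAR2.1* were 88.8 FPKM in the WT, 124.4 in OE15 and 126.0 in OE20. Those of *OsNRT2.1* were 5.94, 9.55 and 7.93 FPKM.

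The levels of the 10 genes spanned a wide range. *OsCSLF6* was the highest, with a mean of 87.8 FPKM over the 6 libraries, above 93.1% of the loci tested. *OsCSLD2* followed at 23.1 FPKM, *OsCSLE2* at 14.9 FPKM, *OsCSLE1* at 9.59 FPKM and *OsCSLD1* at 6.78 FPKM. *OsCSLF8* had a mean of 2.99 FPKM and *OsCSLE6* of 2.03 FPKM. The remaining CSLF genes were low, with means of 0.775 FPKM for *OsCSLF9*, 0.511 FPKM for *OsCSLF2* and 0.242 FPKM for *OsCSLF1*. Taken over all 6 libraries, the ranges of neighbours in this order did not overlap, except those of *OsCSLF8* with *OsCSLE6* and of *OsCSLF2* with *OsCSLF1*. All of the tandem CSLF copies were thus far below *OsCSLF6*, whereas on chromosome 9 *OsCSLE1* was above *OsCSLE6* in each library.

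**Figure D1:**
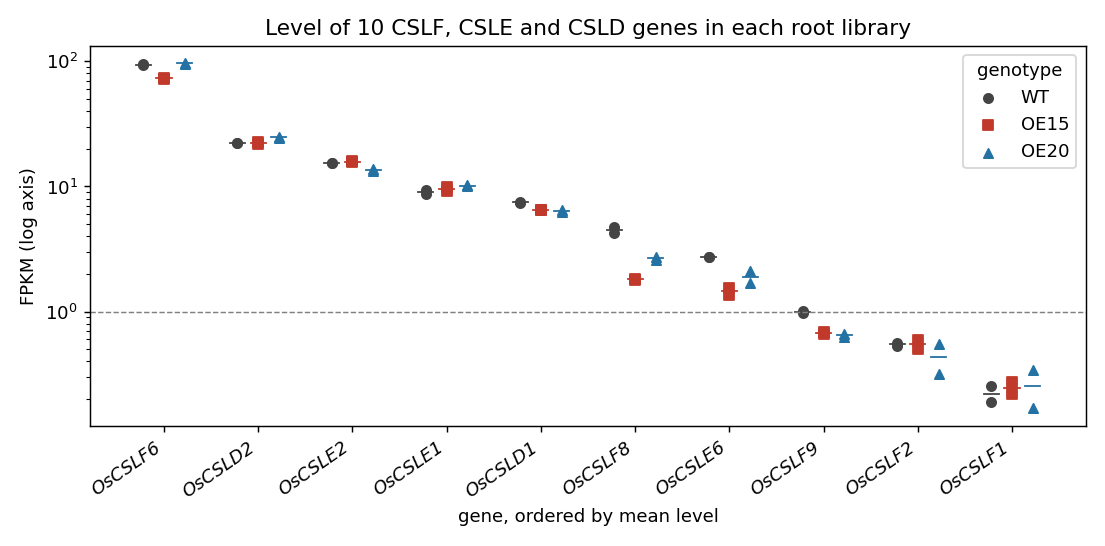
FPKM on a log axis for the 10 genes in each library, with 2 points per genotype and a short line at their mean. The dashed line is the minimum mean of 1 FPKM for the test, and *OsCSLF9*, *OsCSLF2* and *OsCSLF1* have means below it. For *OsCSLF8*, *OsCSLE6*, *OsCSLF9* and *OsCSLD1* both WT points lie above all 4 points of the lines. The share of all loci that separate in this way was not counted.

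The limma fit took the 20627 loci whose mean reached 1 FPKM, and 7 of the 10 members were among them. Genes were called at a Benjamini-Hochberg adjusted p under 0.05 over all loci tested together with a change of more than 1.5-fold. In OE15, 2 of the 7 members were called lower than in the WT, where 2.59% of all loci tested were, and 0 were called higher, where 2.9% of all loci were. No member reached an unadjusted p under 0.05 on the higher side in OE15, where 18.6% of all loci did, and 3 members had an adjusted p under 0.05 whatever the fold, against 20.4% of all loci. In OE20, 1 of the 7 was called lower (1.64% of all loci) and 0 higher (1.46% of all loci), although 2 had an unadjusted p under 0.05 on the higher side, as did 15.2% of all loci. The same single member had an adjusted p under 0.05 in OE20, against 11.9% of all loci. On the lower side, 4 of the 7 members had an unadjusted p under 0.05 in each line. The share of all loci on that side was not counted. One gene, *OsCSLF8*, was called lower in both lines, as were 1.08% of all loci. The members called, *OsCSLF8* and *OsCSLE6*, are also the ones the study lists among its lowered cell wall genes on these libraries, so their direction here is no independent evidence. The study also measured both by q-PCR in roots of OE15, OE20 and a further line, OE23, and reports them as markedly lower. Those q-PCR values were not compared here. The FPKM of a line and the WT did not overlap for 5 of the 7 members in OE15, against 62.8% of all loci, and for 7 of 7 in OE20, against 55.9%. The log2 fold changes of the 7 members had a median of -0.20 in OE15 and -0.18 in OE20, beside 0.023 and 0.016 for all loci tested. The comparisons of OE15 and of OE20 share their WT libraries. The labels do not say that the libraries of a genotype came from separate cultures or plants, so the p-values measure the spread between these libraries.

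*OsCSLF8* belongs to the clade of mixed-linkage glucan synthases and lies in the tandem group of chromosome 7. It measured 4.78 and 4.21 FPKM in the WT, compared with 1.80 and 1.84 FPKM for OE15 and with 2.72 and 2.61 FPKM for OE20. Both WT libraries were above all 4 OE libraries, and the OE20 libraries lay between those of the WT and OE15. For this gene and those below, the share of all loci with the WT apart from all 4 OE libraries was not counted. The mean fell to 40.5% of the WT in OE15 and to 59.3% in OE20. Its fit gave a log2 fold change of -1.26 for OE15 (standard error 0.12, 95% interval -1.54 to -0.97, adjusted p = 0.000644 from limma). In OE20 it was -0.73 (standard error 0.12, 95% interval -1.02 to -0.44, adjusted p = 0.0113 from limma). The call in OE20 was lost without WT replicate 1 (-0.64, adjusted p = 0.0744), without OE20 replicate 1 (-0.76, adjusted p = 0.0558) and without OE20 replicate 2 (-0.70, adjusted p = 0.064). With a pseudocount of 1 the change in OE20 was -0.58 and missed the limit of 1.5-fold.

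*OsCSLE6* was called in OE15. The WT libraries held it at 2.76 and 2.72 FPKM, those of OE15 at 1.53 and 1.37 FPKM and those of OE20 at 2.101 and 1.68 FPKM. Again both WT libraries were above all the OE libraries, and the ranges of OE15 and OE20 did not overlap. For OE15 its log2 fold change was -0.88 (standard error 0.16, 95% interval -1.26 to -0.49, adjusted p = 0.0108 from limma). In OE20 it was -0.52 (95% interval -0.91 to -0.13), which missed the threshold with an adjusted p of 0.0901 from limma. The call in OE15 was lost without WT replicate 1 (-0.87, adjusted p = 0.0598) and without OE15 replicate 2 (-0.80, adjusted p = 0.0643).

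*OsCSLE1*, the copy next to *OsCSLE6*, did not pass the test in either line. It measured 8.77 and 9.33 FPKM in the WT, compared with 9.24 and 9.91 FPKM for OE15 and with 10.2 and 10.04 FPKM for OE20. The OE15 range overlapped that of the WT, and the OE20 libraries were above it. The log2 fold changes were 0.081 in OE15 (95% interval -0.082 to 0.24, adjusted p = 0.455 from limma) and 0.16 in OE20 (95% interval 0.00053 to 0.33, adjusted p = 0.181). Within each library, the ratio of *OsCSLE6* to *OsCSLE1* was 0.314 and 0.292 in the WT, 0.166 and 0.138 in OE15 and 0.205 and 0.168 in OE20. The ratio was thus lower in all 4 OE libraries than in both WT libraries, a comparison that does not depend on the scaling between libraries. For this ratio and those given below, the number of other gene pairs that separate in this way was not counted.

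*OsCSLF6*, the most abundant member, differed between the lines. The WT libraries held it at 93.2 and 94.8 FPKM, those of OE15 at 74.1 and 72.5 FPKM and those of OE20 at 96.0 and 96.6 FPKM. The OE15 libraries were below all the others, while both OE20 libraries were slightly above those of the WT. For OE15 limma gave a log2 fold change of -0.36 (standard error 0.032, 95% interval -0.43 to -0.28, adjusted p = 0.000489), a fall that passed the test but stayed below 1.5-fold. In OE20 the log2 fold change was 0.035 (95% interval -0.042 to 0.11, adjusted p = 0.539 from limma). Tested directly, OE15 was lower than OE20, with a log2 difference of -0.39 (95% interval -0.47 to -0.32, adjusted p = 0.000909 from limma). In this direct comparison of the lines, 11.6% of all loci had an adjusted p under 0.05. The adjusted p of *OsCSLF6* stayed under 0.05 in each of the 17 settings run for it, although the stricter threshold only repeats the main value.

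**Figure D2:**
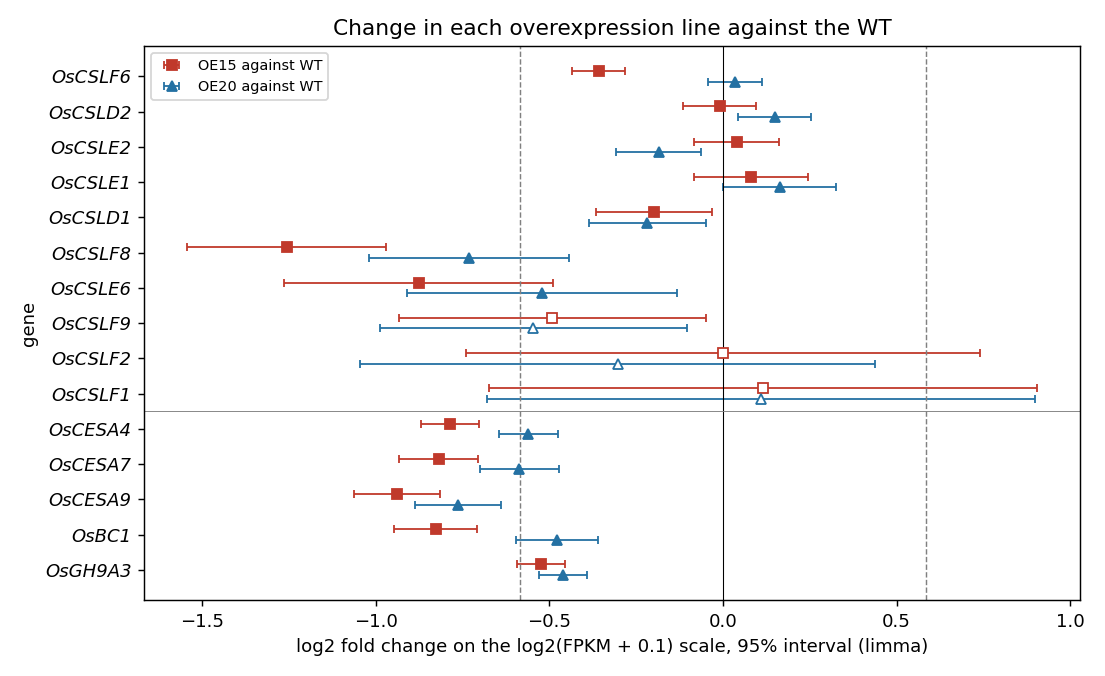
Log2 fold change of each gene in OE15 (squares) and OE20 (triangles) against the WT, with 95% intervals from limma. Open symbols mark the 3 genes below the minimum mean, taken from the fit without a minimum. Dashed lines mark a change of 1.5-fold, and the genes under the horizontal line are cellulose genes named by the study. Only *OsCSLF8* lies beyond the left dashed line in both lines among the 10 CSL genes, and *OsCSLF6* is lower only in OE15.

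*OsCSLF6* made up most of the summed CSLF level in every library. Its share of the summed FPKM of the 5 CSLF genes was 93.8% ± 0.403 (SD, n = 2) in the WT, 95.7% ± 0.252 in OE15 and 96.0% ± 0.208 in OE20. The share of *OsCSLF8* was 4.49% ± 0.435 in the WT, 2.38% ± 0.0671 in OE15 and 2.66% ± 0.0967 in OE20. Summed CSLF FPKM was 99.7 and 100.8 in the WT, 77.3 and 75.9 in OE15 and 99.8 and 100.8 in OE20. The sum was lower in both OE15 libraries than in the other 4, and 87.5% of the difference from the WT came from *OsCSLF6* and 11.3% from *OsCSLF8*. In OE20 the mean of *OsCSLF6* was 2.32 FPKM above the WT mean while that of *OsCSLF8* fell by 1.83 FPKM, and the sum stood 0.0708 FPKM from that of the WT. The sums and shares were not tested.

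**Figure D3:**
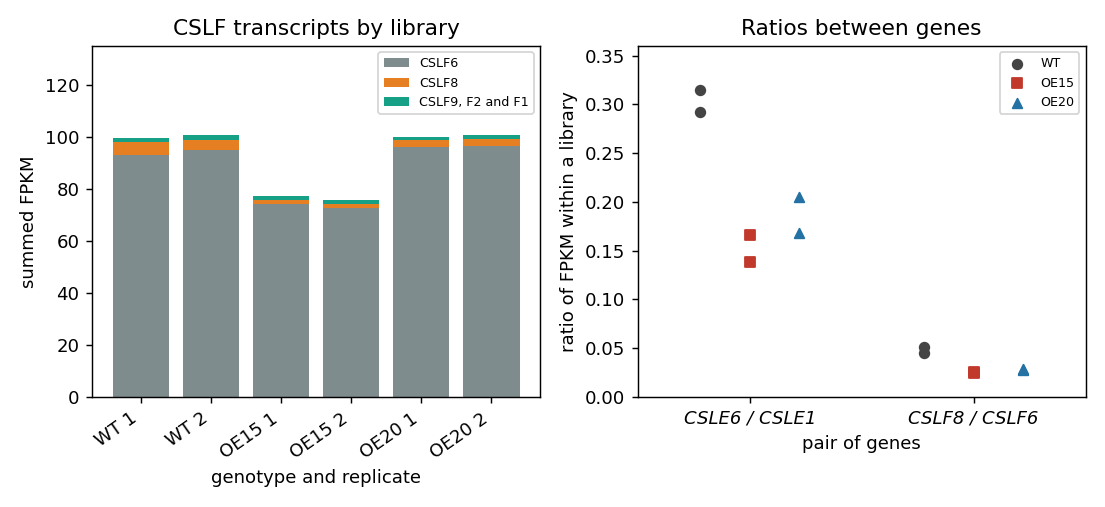
Left, summed FPKM of the CSLF genes in each library, with *OsCSLF6*, *OsCSLF8* and the 3 low genes stacked; right, the ratio of *OsCSLE6* to *OsCSLE1* and of *OsCSLF8* to *OsCSLF6* within each library. The sum is lower in the 2 OE15 libraries, whereas both ratios are lower in all 4 OE libraries than in the 2 WT libraries. How many other gene pairs separate in this way was not counted.

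The 3 low CSLF genes did not pass the minimum mean, so their values are given with a test from the fit of all loci above 0. *OsCSLF9* measured 1.01 and 0.978 FPKM in the WT, compared with 0.668 and 0.690 FPKM for OE15 and with 0.632 and 0.668 FPKM for OE20. All 4 OE libraries were below both WT libraries. Without a minimum, limma gave changes of -0.49 for OE15 and -0.55 for OE20 on the log2 scale (standard error 0.17), with unadjusted p of 0.0361 and 0.0254 and adjusted p of 0.17 and 0.175 from limma. *OsCSLF2* ranged from 0.319 to 0.598 FPKM and *OsCSLF1* from 0.169 to 0.342 FPKM. The WT and OE ranges overlapped for both genes, and their 95% intervals in the same fit reached from -1.04 to 0.74 and from -0.68 to 0.91 on the log2 scale over the 2 lines. A fall of 1.5-fold is inside the interval of each gene in each line and was not detectable here, and a rise of 1.5-fold is outside only that of *OsCSLF2* in OE20, whose upper bound was 0.44.

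*OsCSLE2* is the E clade member outside the tandem pair. The WT libraries held it at 15.4 and 15.3 FPKM, those of OE15 at 15.6 and 16.1 FPKM and those of OE20 at 13.7 and 13.3 FPKM. The OE15 libraries were just above the WT and the OE20 libraries below it. The log2 fold changes were 0.040 in OE15 (adjusted p = 0.631 from limma) and -0.18 in OE20 (95% interval -0.31 to -0.062, adjusted p = 0.0648). The direct difference between OE15 and OE20 was 0.22 (95% interval 0.10 to 0.35, adjusted p = 0.0371 from limma).

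Neither of the 2 CSLD genes passed the threshold in a line. *OsCSLD1* measured 7.57 and 7.33 FPKM in the WT, compared with 6.47 and 6.49 FPKM for OE15 and with 6.31 and 6.49 FPKM for OE20. All 4 OE libraries were below the WT libraries, by a log2 fold change of -0.20 in OE15 (95% interval -0.37 to -0.032, adjusted p = 0.0941 from limma) and -0.22 in OE20 (95% interval -0.38 to -0.05, adjusted p = 0.0978). The WT libraries held *OsCSLD2* at 22.4 and 22.2 FPKM, those of OE15 at 22.5 and 21.8 FPKM and those of OE20 at 24.5 and 24.96 FPKM. Its OE20 libraries were above the others, with a log2 fold change of 0.15 (95% interval 0.044 to 0.25, adjusted p = 0.0769 from limma), whereas in OE15 it was -0.0095 (95% interval -0.11 to 0.096). The ratio of *OsCSLD2* to *OsCSLD1* was 2.96 and 3.02 in the WT, 3.48 and 3.36 in OE15 and 3.89 and 3.85 in OE20, higher in all 4 OE libraries than in both WT libraries. The intervals exclude a change of 1.5-fold for both genes in both lines.

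Compared directly, no member was called between OE15 and OE20 by limma at the limit of 1.5-fold, where 2.06% of all loci were called. The ranges of the lines did not overlap for 6 of the 7 members, against 57.8% of all loci. The unadjusted p was under 0.05 for 4 of the 7, against 27.6% of all loci. The adjusted p was under 0.05 for 3 of them, *OsCSLF6*, *OsCSLF8* and *OsCSLE2*, against 11.6% of all loci. For *OsCSLF8* OE15 was lower than OE20, with a log2 difference of -0.53 (95% interval -0.81 to -0.24, adjusted p = 0.0372 from limma). That adjusted p ran from 0.0333 to 0.152 over the alternatives, and that of *OsCSLE2* from 0.0255 to 0.176. Leaving out any 1 of the 6 libraries put it above 0.05 for both genes, from 0.052 to 0.152 for *OsCSLF8* and from 0.0538 to 0.176 for *OsCSLE2*. *OsMYB305* itself was higher in OE15 than in OE20. Group means in the order WT, OE20, OE15 from high to low were found for 2 of the 7 members tested and for 17.6% of all loci tested. These members were *OsCSLF8* and *OsCSLE6*, the ones called lower. For *OsCSLE6* the direct difference between OE15 and OE20 did not pass the test. It was -0.36 on the log2 scale (95% interval -0.74 to 0.032, adjusted p = 0.216 from limma).

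The neighbours of the tandem genes were read in the order of their MSU names. On chromosome 7, the 28 loci listed from LOC_Os07g36500 to LOC_Os07g36800 include the 4 CSLF copies. Of the 24 others, 8 were tested and another 8 were listed at 0 in every library. None of the 8 tested was called lower in a line, although LOC_Os07g36570 had a log2 fold change of -0.41 in OE15 with an adjusted p of 0.0185 from limma, below 1.5-fold. In the same window LOC_Os07g36800 was called higher in OE15, at 24.9 and 23.8 FPKM in the WT and 34.2 and 39.2 FPKM in OE15 (log2 fold change 0.59, adjusted p = 0.00271 from limma). In OE20 its log2 fold change was 0.40 with an adjusted p of 0.0205 from limma, below 1.5-fold. On chromosome 9, the 15 loci from LOC_Os09g30050 to LOC_Os09g30200 include the 2 CSLE copies, and 9 of the 13 others were tested. None was called lower, and LOC_Os09g30050 was called higher in both lines, with log2 fold changes of 0.64 in OE15 and 1.07 in OE20 (adjusted p = 0.0327 and 0.00813 from limma). LOC_Os09g30150 and LOC_Os09g30190 were higher in both lines at an adjusted p under 0.05 from limma, below 1.5-fold. Their log2 fold changes were 0.31 and 0.21 in OE15 and 0.30 and 0.31 in OE20. Over all loci tested, 2.59% were called lower in OE15 and 1.64% in OE20, and 2.9% and 1.46% higher. With so few neighbours tested, the absence of lower calls says little. The log2 fold changes of the tested neighbours ran from -0.41 to 0.59 in OE15 on chromosome 7 and from -0.18 to 0.64 on chromosome 9. None of these neighbours fell as far as *OsCSLF8* or *OsCSLE6*, which are set beside them because these CSL genes were called lower.

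**Figure D4:**
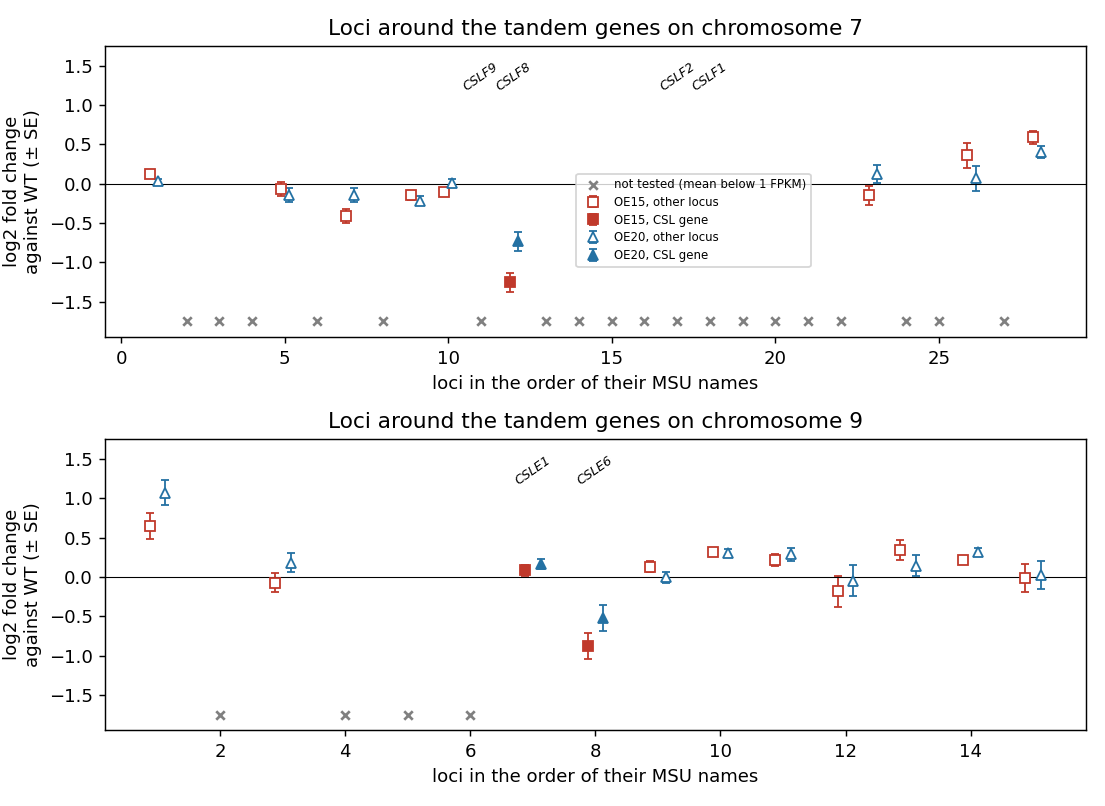
Log2 fold change against the WT (± standard error) of the tested loci around the tandem CSL genes, in the order of their MSU names on chromosomes 7 and 9; filled symbols are CSL genes, open symbols other loci, and crosses at the bottom loci below the minimum mean. *OsCSLF8* and *OsCSLE6* lie below their tested neighbours in both lines.

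Outside the CSL list, the study names 5 genes of cellulose synthesis. It chose them on these libraries, so neither their direction nor the size of their change is independent evidence. *OsCESA4*, *OsCESA7* and *OsCESA9* encode the cellulose synthases of the secondary wall, *OsBC1* a COBRA-like protein needed for their product, and *OsGH9A3* an endoglucanase. In OE15, 4 of the 5 were called lower and in OE20 2 of the 5, with adjusted p under 0.05 for all 5 in both lines. Their log2 fold changes had a median of -0.82 in OE15 and -0.56 in OE20, and those of the CSL genes -0.20 and -0.18. These medians cannot be ranked, since the study's genes were picked as lowered and the CSL list was not limited to such genes. *OsCESA9* measured 67.8 and 74.7 FPKM in the WT, compared with 36.9 and 37.3 FPKM for OE15 and with 42.6 and 41.2 FPKM for OE20. In the WT, *OsCSLF6* was above each of the 3 CESA genes and below *OsGH9A3* in FPKM.

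Among the 458 loci that the study annotates or that are members, and that were tested, those most like *OsCSLF8* over the 6 libraries were sought by the root mean square difference of log2(FPKM + 0.1) after subtracting each locus's own mean. Most of these loci were listed by the study as changed in both lines on the same libraries, so likeness to a falling gene is partly set by that choice. The nearest was LOC_Os02g48450, annotated as a xylem cysteine proteinase 2 precursor, at a difference of 0.0467. The WT libraries held it at 14.7 and 12.5 FPKM, those of OE15 at 5.72 and 5.86 FPKM and those of OE20 at 7.87 and 7.66 FPKM. The next were LOC_Os10g40720, an expansin precursor (0.0676), and LOC_Os10g31710, a glycine-rich cell wall structural protein (0.0686). For *OsCSLE6* the nearest were LOC_Os07g48010, a peroxidase precursor (0.048), *OsBC1* (0.0742) and LOC_Os05g40630, a DUF567 domain protein (0.0833).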

How the data were processed

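Root RNA of 6 libraries, 2 per genotype, was sequenced by the authors. According to the submitters' processing notes, reads were checked with FastQC 0.11.8, trimmed with Trimmomatic 0.38, mapped with HISAT2 2.1.0 and quantified with Cufflinks 2.2.1. The values the authors deposited are FPKM, 1 per MSU locus and library, without pooling. The genome build, the annotation release, strand and the counting of multi-mapped reads are not given in the sources used here. FPKM keeps no read totals, so no counting interval is given.

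After 4 locus names that occur more than once were left out, 55982 loci were kept. Of these, 20627 reached a mean of 1 FPKM and entered limma 3.58.1 (R 4.3.3). The response was log2(FPKM + 0.1), variances were moderated with a mean-variance trend, and all 3 genotypes shared the fit, which leaves 3 degrees of freedom per locus. Fold changes are on that scale, which understates those of low genes. Adjusted p-values are Benjamini-Hochberg values over all loci tested. The script was tested on simulated data.

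The members, lists and limits were chosen with earlier results of these data known. Named are the 10 members, *OsMYB305*, 2 root nitrate uptake genes, 5 cellulose genes of the study, called neighbours in 2 windows, and the 3 annotated loci most like each called member. Gene names are those of the study and of the list of members, since the RefSeq list (assembly ASM3414082v1) does not hold MSU names. Promoters were not analysed here. The alternatives were other pseudocounts, minimum means, scalings, fits, thresholds, a replicate block and each library left out.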

Additional observations from a re-analysis of the deposited data

Results flagged for a closer look

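For 3 of the 7 members tested, the effect in OE15 differed from that in OE20 at an adjusted p under 0.05 when the lines were compared directly with limma, where 11.6% of all loci passed. None of the 3 differences reached 1.5-fold, so none was called. *OsCSLF6* was lower in OE15, by a log2 difference of -0.39 (adjusted p = 0.000909), and *OsCSLF8* was lower in OE15, by -0.53 (adjusted p = 0.0372). *OsCSLE2* was higher in OE15, by 0.22 (adjusted p = 0.0371). For *OsCSLF6* the adjusted p was under 0.05 in 17 of 17 settings, for *OsCSLE2* in 8 of 17 and for *OsCSLF8* in 7 of 16. The setting at an adjusted p under 0.01 changes only the threshold, so in these counts it repeats the adjusted p of the main fit. The lines differ in insertion event as well as in the level of *OsMYB305*, and these cannot be told apart here.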

How the results depend on the processing

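The count of members called in OE15, 2 with the settings as reported, was 0 with a minimum mean of 5 FPKM, which leaves *OsCSLF8* and *OsCSLE6* untested, and 1 at an adjusted p under 0.01. The count in OE20, 1 as reported, was 0 with a pseudocount of 1, with a minimum mean of 5 FPKM and at an adjusted p under 0.01. Between OE15 and OE20 the count of 0 became 3 without a limit on the fold change. Leaving out each library in turn gave 1 to 2 members in OE15, 0 to 1 in OE20 and 0 between the lines. The sign of the change turned only where it was near 0: *OsCSLD2* in OE15, which ran from -0.0323 to 0.0133 as each library was left out, and *OsCSLD1* between the lines, which was -0.0115 under quantile normalization and ran from -0.00157 to 0.0378 as each library was left out. With the replicate number as a block the counts were 2, 1 and 0, as without it. The block took *OsCSLF8* and *OsCSLE2* between the lines to adjusted p of 0.0541 and 0.0594. No shift shared by replicate number was seen, with correlations of the deviations from the genotype means of 0.0226, 0.0314 and -0.0685. These values do not show whether libraries of the same number were grown or handled together. Over all loci, dropping the limit on the fold change raised the lower calls in OE15 from 535 to 2041 and in OE20 from 339 to 1128, and a minimum mean of 5 FPKM reduced them to 258 and 168. With 2 libraries per genotype the spread is weakly estimated, and members below 1 FPKM could not be resolved to 1.5-fold.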

Other observations

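Near the tandem CSLF genes on chromosome 7, 2 loci below the minimum mean were singled out after their values were seen, and neither was tested. LOC_Os07g36740 measured 0.406 and 0.269 FPKM in the WT, compared with 0.106 and 0.0648 FPKM for OE15 and with 0.125 and 0.165 FPKM for OE20. The WT libraries held LOC_Os07g36710, next to *OsCSLF1*, at 0.00757 and 0.0242 FPKM, those of OE15 at 0.224 and 0.233 FPKM and those of OE20 at 0.154 and 0.150 FPKM. The first was lower and the second higher in all 4 OE libraries than in both WT libraries. The RefSeq list places *OsCslF4* and *OsCslF3* after *OsCslF2* on this chromosome, but it does not pair them with MSU names, so no name is given to these loci. The next locus, LOC_Os07g36750, was tested and lay between 4.70 and 6.56 FPKM, with overlapping ranges of the WT and both lines.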
